A study of Mus musculus with 24 samples.

Results

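Oxidative phosphorylation subunits are the proteins of the 5 enzyme complexes that carry out respiration and ATP synthesis in the inner mitochondrial membrane. The genes described here were chosen by symbol alone: protein-coding mouse genes named Nduf (subunits, without assembly factors), Sdha to Sdhd, Uqcr, Cox4 to Cox8 or Atp5, together with the protein-coding genes of mitochondrial DNA. The rule gave 97 of the 37991 genes in the deposited count table, 84 encoded in the nucleus and 13 in the mitochondrion. By complex the nuclear genes were 37 of complex I, 4 of complex II, 8 of complex III, 18 of complex IV and 17 of complex V, and the mitochondrial genes were 7, 0, 1, 3 and 2. Complexes were assigned by symbol alone, so Ndufa4 is counted with complex I, Cox7a2l with complex IV and Atp5s with complex V. A place in the list does not by itself show that a gene encodes a structural subunit.

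Complex I (NADH dehydrogenase) and complex II (succinate dehydrogenase) pass electrons to ubiquinone, complex III (cytochrome bc1) passes them on to cytochrome c, and complex IV (cytochrome c oxidase) hands them to oxygen. Complexes I, III and IV pump protons, and complex V (ATP synthase) uses the gradient to make ATP, on which neurons depend for ion pumping and synaptic transmission. Apart from complex II, each complex joins proteins from both genomes: nuclear genes are transcribed singly by RNA polymerase II, whereas mitochondrial genes are transcribed as long precursors from both strands of the circular genome and then cut at tRNAs.

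RNA was sequenced from nucleus accumbens, a ventral striatal region involved in reward and motivation, in 24 libraries of C57BL/6J mice, each made from the pooled mRNA of 4 mice. The labels give 8 groups of 3 libraries in 2 experiments: wild-type control females, stressed females, control males and stressed males, which received no virus, and Dnmt3a2lox/2lox females and males, all of them stressed, which received AAV-GFP or AAV-CRE. Cre recombinase deletes the floxed part of Dnmt3a, a DNA methyltransferase. No source used here gives the promoter driving Cre, the share of cells infected or the ages. By its title the series concerns subchronic variable stress, and the protocol names dorsal striatum beside the nucleus accumbens. The labels call the libraries independent biological replicates, each a pool of animals. In wild-type mice, however, same-numbered control and stressed libraries deviated from their group means in a correlated way. The correlations were 0.33 to 0.59 in females and 0.086 to 0.34 in males. Part of the spread between those libraries was thus shared by replicate number.

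What the counts of the mitochondrial genes can hold depends on sequence, because mouse nuclear chromosomes carry copies of mitochondrial DNA. In the GENCODE M21 transcripts, 9 of the 13 mitochondrial genes matched an annotated nuclear pseudogene at 95% identity or more over at least 100 bases, and 7 did at 99% or more. mt-Atp6 and Gm10925 were identical over 678 bases, mt-Co2 and Gm28661 over 681, mt-Co3 and Gm28437 over 783, and mt-Nd4 and Gm28439 over 876 of the 1378 bases of mt-Nd4. No copy passed for 4 genes, among them mt-Cytb and mt-Nd1. The starts of 2 pairs are shown because they differ by a single base or not at all, and the capitals mark the differing base, T3C counted from the first base of the gene.
mt-Nd3: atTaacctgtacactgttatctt
Gm28438: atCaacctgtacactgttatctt
mt-Nd4l: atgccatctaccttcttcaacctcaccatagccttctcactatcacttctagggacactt
Gm10222: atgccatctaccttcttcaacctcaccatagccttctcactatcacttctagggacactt
mt-Nd4l and Gm10222 were identical over 294 bases, and Gm10222 was the only copy of 99% identity or more with a row in the count table. mt-Nd4l, a small membrane subunit of complex I, had 0 or 1 count in each wild-type library and 1 to 7 in each floxed library, while Gm10222 had 1 to 102 counts. mt-Nd4l overlaps mt-Nd4 on the same strand, and a read that lies in both, or that aligns to both genome copies, is not assigned by all counting settings. Its level was therefore not interpreted. No source used here says how reads shared with the other copies were assigned.

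The nuclear genes have separate promoters, and their best-known activators bind short motifs near the start site: NRF1 (nuclear respiratory factor), GABPA (also called NRF2) and YY1. RefSeq promoter windows, from 250 bases before to 50 after the start (build GRCm38.p6), were matched for 67 of the 97 genes. The palindromic core of the NRF1 site, spelled in capitals in the lines that follow, was found in 5 of the 67 (7.46%) against 1.07% of the windows of all 27025 symbols. On both strands, the GABPA motif CCGGAAGT was found in 5 (7.46%, against 4.31%), the YY1 motif AAGATGGCG in 7 (10.4%, against 1.64%) and the TATA box TATAAA in 7 (10.4%, against 15.7%). A match is a string of letters and not a measured site. The stretches around the NRF1 motif, in capitals, are shown for the 4 genes that carry it upstream of the start, to show its position in genes of 3 complexes.
Cox6a1 (chr5:115349081-115349150, minus strand): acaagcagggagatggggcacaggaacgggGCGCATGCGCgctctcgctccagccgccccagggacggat
Atp5g2 (chr15:102671050-102671119, minus strand): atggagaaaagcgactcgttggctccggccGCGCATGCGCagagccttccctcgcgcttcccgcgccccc
Atp5k (chr5:108434410-108434479, minus strand): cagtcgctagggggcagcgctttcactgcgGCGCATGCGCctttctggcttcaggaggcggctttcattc
Ndufa11 (chr17:56717672-56717741, plus strand): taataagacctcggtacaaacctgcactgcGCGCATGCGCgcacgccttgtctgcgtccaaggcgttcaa
The motif began 162 bases before the start in Cox6a1, 42 in Atp5g2, 50 in Atp5k and 60 in Ndufa11. These 4 genes were at 139, 65.5, 50.7 and 48.5 CPM (counts scaled to library size with TMM factors) on average over the floxed libraries.

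Total counts ranged from 7116123 to 12145551 in the wild-type and from 28132563 to 59829070 in the floxed libraries, so low genes are measured more precisely in the floxed experiment. The experiments differ in genotype, virus and depth together and were fitted apart, with no fold change between them. All 15 shared markers of medium spiny neurons, the main striatal neurons, had counts in every library. They summed to 10082 CPM or more in every library except CRE male 2 (6119 CPM). The 15 cortical excitatory markers summed to 427 to 848 CPM in the 3 CRE male libraries against 152 to 398 CPM in the other 21, and no marker was at 0 in a whole group. The 15 choroid plexus and ependyma markers summed to 3369 CPM in CRE male 2 and 4856 CPM in control male 3, against 169 to 1908 CPM elsewhere. Dnmt3a was at 182, 164 and 171 CPM in GFP males and 143, 137 and 138 CPM in CRE males, where it fell by 0.30 on the log2 scale (SE 0.06, edgeR adjusted p = 0.0149). In females it was at 162, 169 and 155 CPM with GFP and 155, 150 and 140 CPM with CRE (log2 -0.12, SE 0.06, edgeR adjusted p = 0.829). These counts cover the whole gene, deleted part or not. In CRE males edgeR called 1.28% of the 17597 genes tested lower. With a score of the cortical markers added to the model it called 0 genes there, so Dnmt3a was not called either. The part of neighbouring tissue in the Dnmt3a result was not tested.

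The mitochondrial genes were the most abundant subunit genes per unit of length. On a scale of mean CPM per kb of annotated exon, 12 of the 13 filled ranks 1 to 12 of the 97 genes in both experiments, from mt-Co1 (9064 in wild-type and 14105 in floxed libraries), the catalytic subunit of cytochrome c oxidase, down to mt-Atp8 (821 and 907), a small membrane subunit of ATP synthase. The nuclear genes began with Cox8a in the wild-type (392) and Atp5a1 in the floxed libraries (263). Atp5a1 (277 and 263) and Atp5b (262 and 217) encode the alpha and beta subunits of the catalytic head of ATP synthase. Sdha, the flavoprotein of succinate dehydrogenase, was at 128 and 97.1, and Ndufs1, the largest iron-sulfur subunit of complex I, at 18.9 and 16.4. At the bottom lay isoforms known from muscle, lung or testis: Cox6a2 (5.91 and 3.91), Cox6b2 (1.67 and 1.63), Cox4i2 (2.04 and 1.51), Cox7a1 (1.31 and 1.02), Cox8b (0.930 and 0.377), Cox7b2 (0.232 and 0.552) and Cox8c (0.0585 and 0.00536). The coefficient of variation over 12 libraries was 7.64% and 2.62% for Sdha and 63.8% and 27.9% for Cox6b2.

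**Figure D1:**
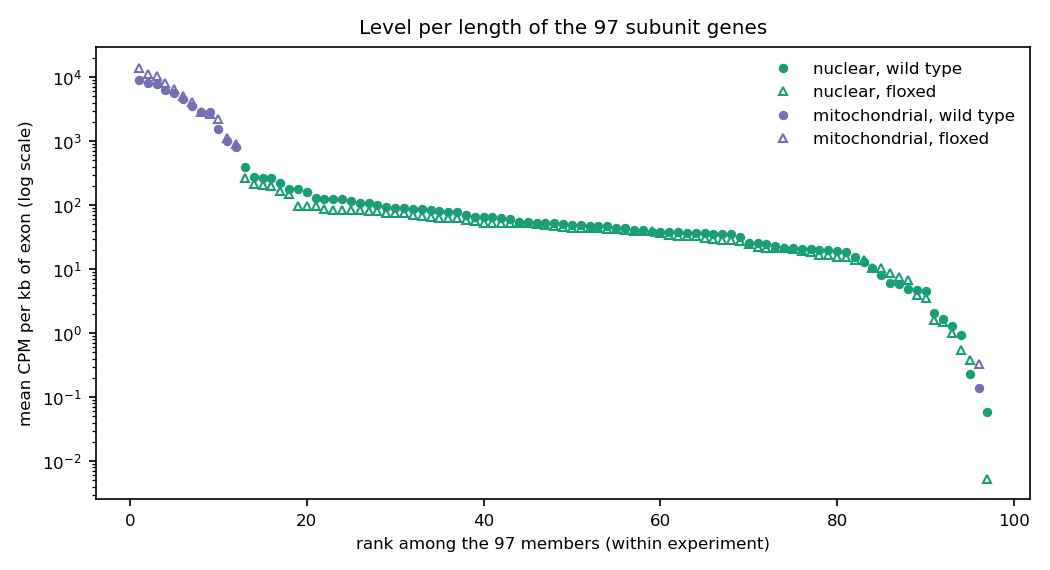
Mean level of each of the 97 subunit genes over 12 libraries, in CPM per kb of exon on a log scale, against its rank within the experiment (filled circles, wild type; open triangles, floxed). The 12 mitochondrial genes at ranks 1 to 12 lie at 821 CPM per kb or more, and mt-Nd4l lies at rank 96.

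Overlap with other genes also bears on the counts: 32 of the 97 overlap a gene on the opposite strand and 19 a gene on the same strand, and whether counting used strand is unknown here. Low isoforms and mt-Nd4l limited what could be tested. In the wild-type experiment 92 of the 97 genes passed the filter on low counts (80 nuclear, 12 mitochondrial), and 94 did in the floxed experiment (82 and 12). The genes left out of both were mt-Nd4l, Cox8b and Cox8c, with Cox7a1 and Cox7b2 left out of the wild-type fit only.

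Each genome was also taken as a share of all counts. Between replicates, the SD of the median log2 level was similar in wild-type mice (0.20 nuclear and 0.18 mitochondrial). In floxed mice it was 0.048 nuclear and 0.095 mitochondrial. In wild-type mice the 13 mitochondrial genes held 6.56%, 5.49% and 6.45% of the counts in control females, 4.40%, 5.94% and 5.73% in stressed females, 4.99%, 5.46% and 6.34% in control males and 5.97%, 6.17% and 4.68% in stressed males. All of these groups overlap. The 84 nuclear genes held 0.807%, 0.836% and 0.806% in control females, 0.988%, 0.894% and 0.835% in stressed females, 1.02%, 0.860% and 0.897% in control males and 1.07%, 0.969% and 0.998% in stressed males. The stressed groups lay higher on average in both sexes, again with overlap of the libraries in each sex.

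In the floxed experiment the mitochondrial share was 7.19%, 7.57% and 7.85% in GFP females, 7.42%, 7.52% and 8.22% in CRE females, 7.07%, 8.15% and 7.03% in GFP males and 6.46%, 6.51% and 7.10% in CRE males. CRE males were the lowest of these 4 groups on average, and CRE male 3 lay above GFP males 1 and 3. The nuclear share was 0.779%, 0.762% and 0.802% in GFP females, 0.762%, 0.778% and 0.808% in CRE females, 0.759%, 0.757% and 0.782% in GFP males and 0.798%, 0.789% and 0.807% in CRE males. Here the CRE male libraries lay above all 3 GFP male libraries, while the female groups overlapped. The ratio of mitochondrial to nuclear counts was 9.69 ± 0.954 in GFP males and 8.38 ± 0.364 in CRE males (SD, n = 3), and the 3 CRE male ratios (8.10, 8.25 and 8.79) lay below the GFP male ratios (9.31, 10.8 and 8.98). It was 9.65 ± 0.375 and 9.86 ± 0.273 in GFP and CRE females, 7.57 ± 0.865 and 5.99 ± 1.33 in control and stressed females, and 6.10 ± 1.12 and 5.56 ± 0.838 in control and stressed males. In bulk tissue, fewer cells of a type and less RNA per cell cannot be told apart, and no test was made of these sums. Among all genes tested, 14.7% had every CRE male library above every GFP male library, and 14.7% had every one below. The 3 CRE male libraries also had the highest sums of cortical markers, as given above.

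**Figure D2:**
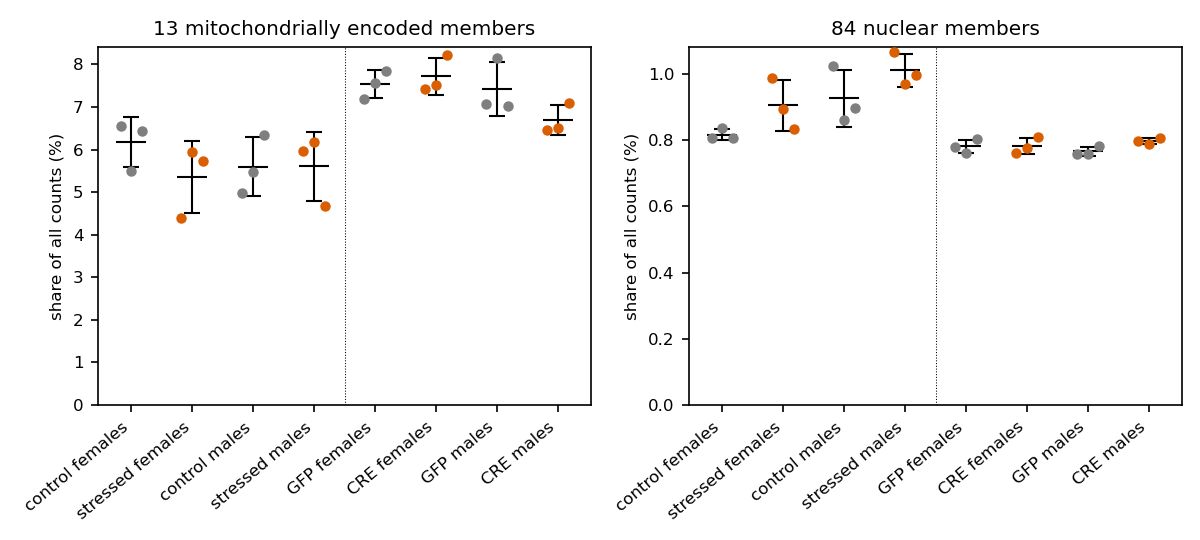
Share of all counts held by the mitochondrial (left) and nuclear (right) subunit genes, in percent, in each of the 24 libraries (points), with the mean and SD of each group of 3 (black). The wild-type nuclear shares spread from 0.806% to 1.07%, the floxed ones from 0.757% to 0.808%.

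The first comparison asked what stress changed in wild-type mice. In females, no subunit gene passed: 0 of 92 were called with edgeR's quasi-likelihood test at an adjusted p below 0.05, against 0% of the 15249 genes tested, 0 of the 92 had an unadjusted p below 0.05 (1.68% of all genes did), and DESeq2 and limma-voom called 0. The estimates of the 2 genomes lay on opposite sides of zero. The median log2 fold change was 0.11 over the 80 nuclear genes, 65 of them positive, and -0.28 over the 12 mitochondrial genes, all 12 negative. The median of all genes tested was -0.0058, with 48.7% positive. Over the alternatives of processing the nuclear median ran from 0.02 to 0.16 and the mitochondrial from -0.39 to -0.09, with no change of sign. In the same contrast 61 of 78 cytosolic ribosomal protein genes had positive estimates (median 0.15). That list is read here only as a possible sign of RNA quality, of which no direct measure was used. Cortical markers were below zero in 10 of 12 (median -1.05, 6 at an unadjusted p below 0.05) and shared medium spiny neuron markers in 15 of 15 (median -0.17), with none called by edgeR. With the cortical score in the model the nuclear median was 0.03 with 44 of 80 positive, and with the ribosomal protein score it was 0.05 with 51 of 80 positive. The part of tissue makeup and RNA quality in the result was not tested. The SD of a group's replicates in the median log2 level was 0.20 for the nuclear and 0.18 for the mitochondrial genes.

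By complex, the nuclear medians in stressed females were 0.11 for complex I (32 of 37 positive), 0.14 for complex II (4 of 4), 0.14 for complex III (7 of 8), 0.08 for complex IV (11 of 14) and 0.08 for complex V (11 of 17). The nuclear genes of smallest p were Uqcrfs1, the Rieske iron-sulfur protein of complex III (log2 0.37, SE 0.19), Atp5e, the epsilon subunit of ATP synthase (log2 0.41, SE 0.22), and Ndufa2, an accessory subunit of complex I (log2 0.38, SE 0.22). On the negative side they were the muscle isoform Cox6a2 (log2 -0.53, SE 0.27), Ndufb3 (log2 -0.17, SE 0.15) and Cox6a1 (log2 -0.18, SE 0.23). None of the 6 passed (edgeR adjusted p = 1.00 each). Uqcrfs1 was at 43.3, 48.5 and 65.5 CPM in control females and 75.2, 54.8 and 73.2 CPM in stressed females, so the groups overlapped. Without control female 1 the estimate for Cox6a1 turned positive (log2 0.12).

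The mitochondrial estimates in stressed females were largest in size for mt-Atp8 (log2 -0.59, SE 0.92) and mt-Nd2 (log2 -0.37, SE 0.24). For the other subunits of complex I they were -0.34 (mt-Nd5, SE 0.23), -0.31 (mt-Nd6, SE 0.30), -0.28 (mt-Nd1, SE 0.17), -0.28 (mt-Nd4, SE 0.20) and -0.22 (mt-Nd3, SE 0.34). mt-Cytb, the cytochrome b of complex III, was at -0.31 (SE 0.20), mt-Co1, mt-Co2 and mt-Co3 of complex IV at -0.20 (SE 0.15), -0.19 (SE 0.14) and -0.01 (SE 0.25), and mt-Atp6, the proton channel subunit, at -0.27 (SE 0.52). mt-Cytb stood at 12540, 8807 and 9978 CPM in control females and 6943, 9468 and 8825 CPM in stressed females: stressed female 1 was the lowest and control female 1 the highest. Without stressed female 1, the mitochondrial median was -0.09.

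**Figure D3:**
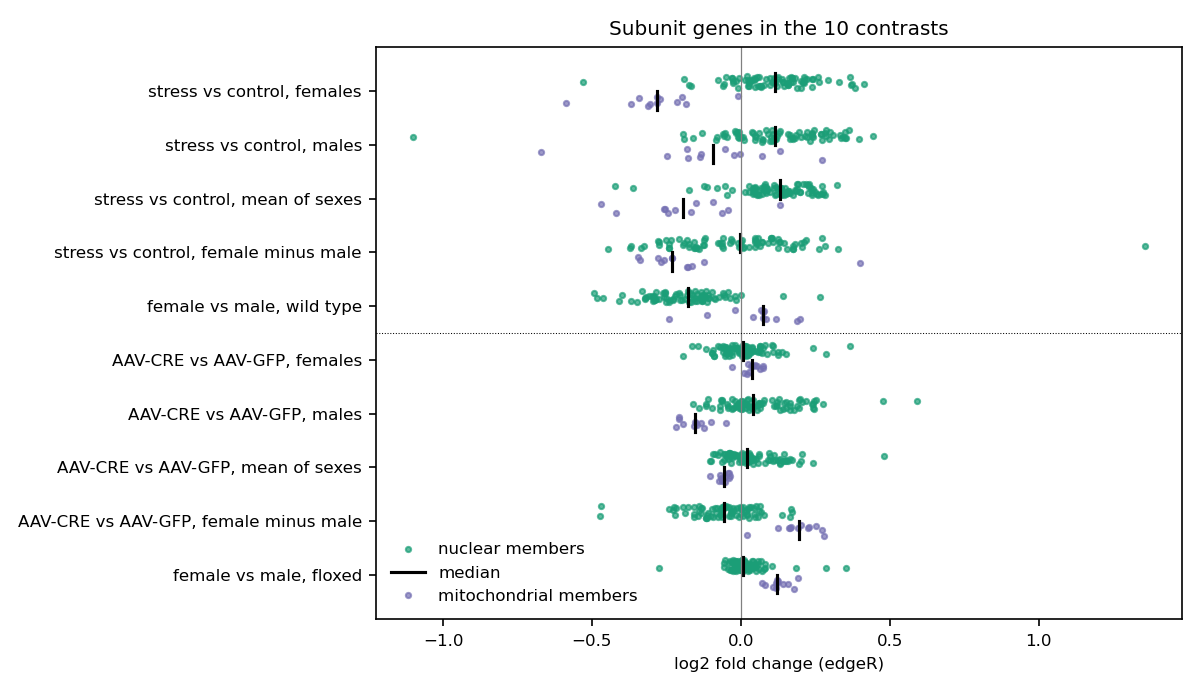
Log2 fold changes (edgeR) of the nuclear (green) and mitochondrial (purple) subunit genes in the 10 contrasts, 1 point a gene, with the median of each set as a black bar. Under stress in females the 12 mitochondrial points lie below zero, with a median of -0.28, while the nuclear median is 0.11. Contrasts above the dotted line use wild-type libraries, those below it floxed libraries.

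Among the mitochondrial genes tested, mt-Atp8, mt-Atp6, mt-Nd3 and mt-Co3 were uneven across the wild-type libraries. mt-Atp8 was at 76.6, 161 and 396 CPM in control females, 20.6, 128 and 274 CPM in stressed females, 35.3, 229 and 254 CPM in control males and 58.3, 242 and 136 CPM in stressed males. Its lowest library in each wild-type group carried the number 1. The coefficient of variation over the 12 wild-type libraries was 67.8% for mt-Atp8, 54.3% for mt-Atp6, 31.7% for mt-Nd3 and 24.8% for mt-Co3, against 12.3% for mt-Co1. Over the 12 floxed libraries it was 11.3%, 9.29%, 12.6%, 9.26% and 7.40% in the same order. mt-Atp8, mt-Atp6 and mt-Co3 overlap one another in sequence in the annotation, mt-Atp6 with both of the others.

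**Figure D4:**
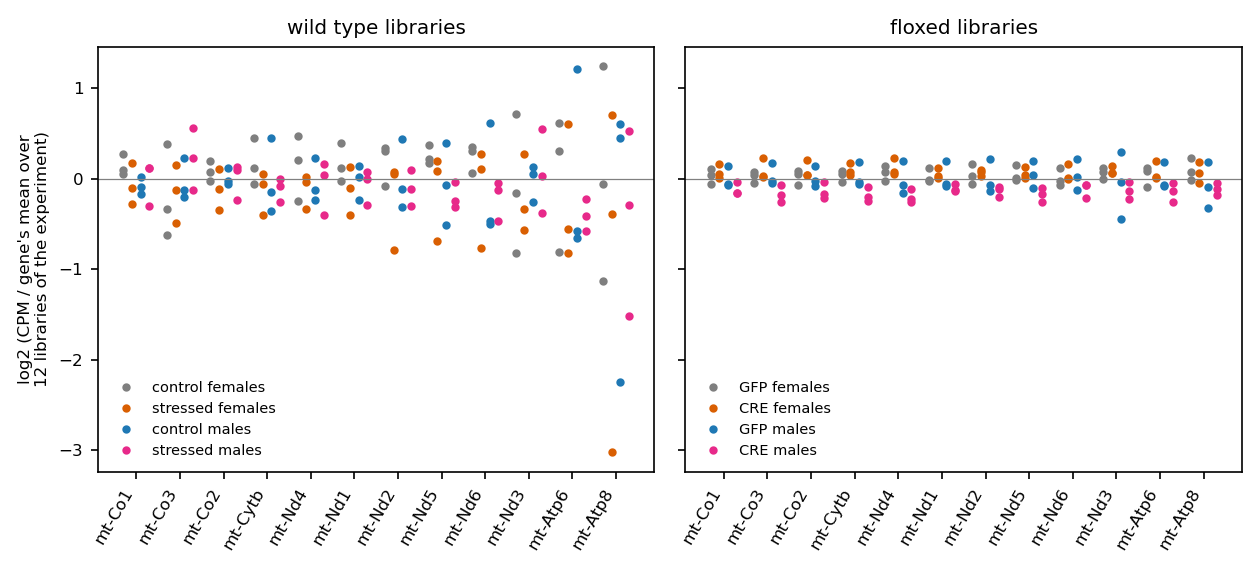
Level of each of 12 mitochondrial genes in each library, as the log2 ratio of its CPM to the gene's mean over the 12 libraries of the experiment (left, wild type; right, floxed; colours, groups). The wild-type points of mt-Atp8 spread widest (coefficient of variation 67.8%), and the floxed points lie closer to zero for every gene shown.

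In stressed males 0 of 92 subunit genes were called by edgeR, against 0.00656% of all genes, and DESeq2 and limma-voom also called 0. At an unadjusted p below 0.05 there were 5 (4 nuclear genes above and 1 below zero), against 2.81% of all genes. The nuclear median was log2 0.11 (63 of 80 positive) and the mitochondrial median -0.09 (3 of 12 positive), beside -0.0011 for all genes with 49.7% positive. The nuclear median stayed positive over the alternatives (0.04 to 0.22), whereas the mitochondrial one ran from -0.22 to 0.14 and was 0.14 without control male 3. Control male 3 was also the library with the highest choroid plexus sum, and with that score as a covariate the mitochondrial median was 0.07. The nuclear median was then 0.06 with 50 of 80 positive, and 0 subunit genes had an unadjusted p below 0.05 (edgeR). Choroid plexus markers had negative estimates in 15 of 15 (median -3.16, 12 at an unadjusted p below 0.05, edgeR). Shared medium spiny neuron markers did in 13 of 15 (median -0.13), and none of either list was called. Ribosomal protein genes of the cytosol were above zero in 75 of 78 (median 0.21, none called). With their score in the model the nuclear median was 0.04 with 48 of 80 positive and the mitochondrial median 0.04 with 9 of 12 positive. The part of tissue makeup and of RNA quality in the result was not tested.

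By complex the nuclear medians in stressed males were 0.13 for complex I (30 of 37 positive), 0.04 for II (2 of 4), 0.13 for III (8 of 8), 0.07 for IV (9 of 14) and 0.16 for V (14 of 17). Ndufs5, a complex I subunit, stood at 34.3, 26.7 and 34.7 CPM in control males and 37.6, 38.5 and 45.8 CPM in stressed males, with no overlap (log2 0.35, SE 0.15). Atp5c1, the gamma subunit that turns inside the ATP synthase head, was at 137, 116 and 99.6 CPM against 152, 171 and 141 CPM, also without overlap (log2 0.40, SE 0.17). Atp5o, the peripheral stalk subunit, had log2 0.30 (SE 0.13). In the other direction lay the testis isoform Cox6b2 (log2 -1.10, SE 0.50), at 1.46, 2.28 and 5.28 CPM in controls and 2.06, 0.651 and 1.51 CPM in stressed males, then Cox6a2 (log2 -0.20, SE 0.27) and Atp5l (log2 -0.16, SE 0.26). None of these 6 passed (edgeR adjusted p = 1.00 each). In all, 7 nuclear genes had every stressed male library above every control male library, against 3.67% of all genes, and none was wholly below (4.24%). None of the 12 mitochondrial genes was without overlap. In females no subunit gene was without overlap (2.72% of all genes were wholly above and 2.58% wholly below).

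Among the mitochondrial genes in stressed males, mt-Co3 was at log2 0.27 (SE 0.25), mt-Nd3 at 0.13 (SE 0.34) and mt-Co1 at 0.07 (SE 0.15). The others were mt-Atp6 at -0.67 (SE 0.52), mt-Atp8 at -0.25 (SE 0.92), mt-Nd6 at -0.18 (SE 0.30), mt-Nd5 at -0.18 (SE 0.23), mt-Nd2 at -0.14 (SE 0.24), mt-Cytb at -0.13 (SE 0.20), mt-Nd1 at -0.05 (SE 0.17), mt-Nd4 at -0.02 (SE 0.20) and mt-Co2 at -0.0035 (SE 0.14). None passed (edgeR adjusted p = 1.00 each), and the estimate farthest from zero in units of its SE was that of mt-Atp6. Without single libraries mt-Atp6 ran from -0.98 to 0.23 and mt-Nd3 from -0.15 to 0.33.

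Averaged over the sexes, 0 of 92 were called by edgeR (0.0131% of all genes were), 2 had an unadjusted p below 0.05 (3.21% of all genes), and DESeq2 and limma-voom called 0. Ndufs5 (log2 0.27, SE 0.11), Atp5o (log2 0.23, SE 0.09) and Ndufa4 (log2 0.26, SE 0.12) had the smallest p above zero, and Cox6a2 (log2 -0.36, SE 0.19), Cox6b2 (log2 -0.42, SE 0.37) and Atp5l (log2 -0.18, SE 0.18) below zero, none of them passing (edgeR adjusted p = 1.00 each). The nuclear median was log2 0.13 with 71 of 80 positive, and the mitochondrial -0.20 with 1 of 12 positive. Neither changed sign over the alternatives (0.06 to 0.19 and -0.26 to -0.07). The mitochondrial estimates were -0.47 for mt-Atp6, -0.42 for mt-Atp8, -0.26 for mt-Nd5, -0.25 for mt-Nd2, -0.24 for mt-Nd6, -0.22 for mt-Cytb, -0.17 for mt-Nd1, -0.15 for mt-Nd4, -0.09 for mt-Co2, -0.06 for mt-Co1, -0.04 for mt-Nd3 and 0.13 for mt-Co3. The ribosomal protein genes of the cytosol had a median of 0.17 with 72 of 78 positive in the same contrast. With their score as a covariate, the nuclear and mitochondrial medians were 0.06 and -0.12, and the part of RNA quality in the result was not tested. The choroid plexus markers had estimates below zero in 15 of 15 (median -1.20) and the cortical markers in 10 of 12 (median -0.40), none of them called, and with these scores as covariates the nuclear median was 0.10 and 0.09. The part of neighbouring tissue was not tested.

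The difference between the sexes in the response to stress, tested as an interaction, called 0 of 92 subunit genes with edgeR, DESeq2 and limma-voom (edgeR called 0% of all genes), and 0 had an unadjusted p below 0.05 (1.19% of all genes). The medians of the female minus male difference were -0.0026 for nuclear and -0.23 for mitochondrial genes, and the mitochondrial median was -0.43 without control male 3. With the cortical score in the model the medians were -0.13 and -0.11, and with the choroid plexus score 0.08 and -0.41. Choroid plexus markers had positive estimates in 15 of 15 (median 3.55) and cortical markers negative ones in 11 of 12 (median -0.85), none called. The part of neighbouring tissue was not tested. Among the mitochondrial genes mt-Atp6 was at 0.40, and the others ran from -0.35 (mt-Nd3) through -0.34 (mt-Atp8), -0.28 (mt-Co3), -0.27 (mt-Co1), -0.26 (mt-Nd4), -0.23 (mt-Nd1 and mt-Nd2), -0.18 (mt-Co2 and mt-Cytb) and -0.16 (mt-Nd5) to -0.12 (mt-Nd6). Cox6b2 (log2 1.36, SE 0.74), Ndufb6 (log2 0.32, SE 0.30) and Uqcrfs1 (log2 0.28, SE 0.26) had the smallest p on the positive side, and Atp5c1 (log2 -0.37, SE 0.25), Ndufa6 (log2 -0.27, SE 0.22) and Ndufb3 (log2 -0.27, SE 0.21) on the negative side. None passed (edgeR adjusted p = 1.00 each).

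Between wild-type females and males, 77 of the 80 nuclear estimates were below zero, with a median log2 of -0.18, against 49.5% positive and a median of -0.0016 over all genes. The mitochondrial median was 0.07 with 9 of 12 positive. No subunit gene was called by edgeR (0.0393% of all genes were, and 0.0262% of all genes were lower in females), DESeq2 or limma-voom. At an unadjusted p below 0.05 were 14, all of them lower in females (5.03% of all genes in either direction). Sdhd, a membrane anchor of succinate dehydrogenase, was at 45.7, 49.3, 53.2, 63.2, 47.1 and 53.4 CPM in females and 75.6, 59.9, 63.0, 67.4, 61.1 and 62.1 CPM in males, so that 1 stressed female lay among the males (log2 -0.32, SE 0.10, edgeR adjusted p = 0.971). Atp5g3, a gene for the rotating c ring of ATP synthase (log2 -0.35, SE 0.12), and Atp5mpl, a small ATP synthase subunit (log2 -0.49, SE 0.18), had the next smallest p. The 3 nuclear genes above zero were Cox6a2 (log2 0.26, SE 0.19), Uqcrb (log2 0.14, SE 0.27) and Ndufv2 (log2 0.00023, SE 0.12). The nuclear median was negative in all 22 alternatives, from -0.24 to -0.08. Ribosomal protein genes ran the same way (median -0.23, 72 of 78 lower in females), and -0.08 was the value with their score as a covariate. Their part in the result was not tested. Choroid plexus markers were also lower in females in 15 of 15 (median -0.64, none called), and cortical markers higher in 10 of 12 (median 0.41, none called). Endothelial (median -0.14) and oligodendrocyte markers (median -0.06) were lower in 12 of 12 and microglia markers in 11 of 12 (median -0.15). Astrocyte markers were lower in 9 of 12 and shared medium spiny neuron markers in 9 of 15, while interneuron markers were higher in 8 of 12. None of these was called, and the part of tissue makeup was not tested.

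The mitochondrial estimates between wild-type females and males lay on both sides of zero. They were -0.24 for mt-Co3, -0.11 for mt-Nd3, -0.02 for mt-Co2, 0.04 for mt-Nd2, 0.07 for mt-Nd4, mt-Nd1 and mt-Cytb, 0.08 for mt-Atp6 and mt-Co1, 0.12 for mt-Atp8, 0.19 for mt-Nd5 and 0.20 for mt-Nd6, and the median's sign changed in 2 of 21 alternatives.

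The second experiment asked what Cre delivery changed in stressed Dnmt3a2lox/2lox mice. In males a single subunit gene, Uqcrq, rose. It encodes a small subunit of complex III (ubiquinone-binding protein QP-C) and was at 29.9, 28.9 and 26.2 CPM in GFP males and 38.2, 44.4 and 45.3 CPM in CRE males. Every CRE male lay above every GFP male, and the change was log2 0.59 (SE 0.11, 1.51-fold, edgeR adjusted p = 0.0154). This was 1 of 94 subunit genes, while 4.96% of the 17597 genes tested were called, 3.68% higher and 1.28% lower. That background of 872 genes rests on few libraries: it was 93 without GFP male 2, 165 without GFP male 3, 246 without GFP male 1, 318 without CRE male 1 and 341 without CRE male 2, and 1303 without CRE male 3. In edgeR the call was lost when the cortical marker score was added to the model (log2 0.71, adjusted p = 1.00) or the choroid plexus score (log2 0.56, adjusted p = 0.145), and without GFP male 2 (adjusted p = 0.0678) or GFP male 3 (adjusted p = 0.0752). Beside it stand cortical markers, 13 of 15 of which were called higher in CRE males (median log2 4.36), and shared medium spiny neuron markers, all 15 of which had negative estimates (median -0.34, none called). Choroid plexus markers had positive estimates in 14 of 14 (median 3.48, none called). The part of neighbouring tissue in the Uqcrq result was not tested.

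**Figure D5:**
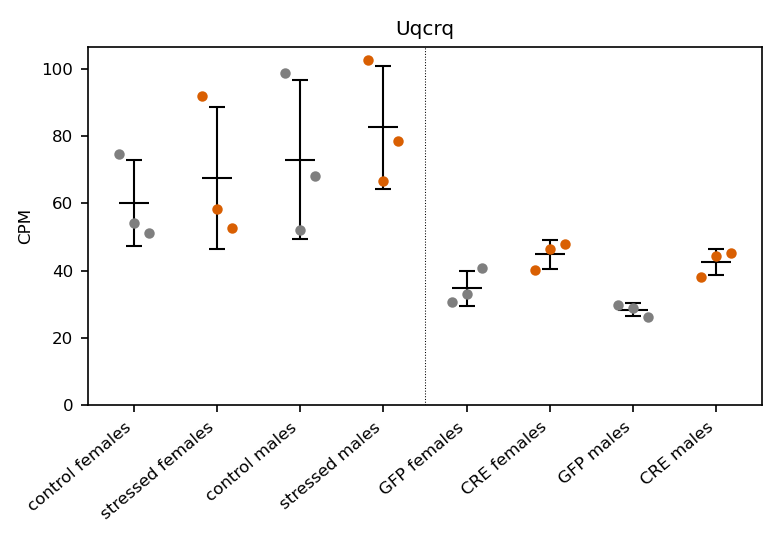
Uqcrq in CPM in each of the 24 libraries (points), with the mean and SD of each group of 3 (black). CRE males (38.2 to 45.3 CPM) lie above GFP males (26.2 to 29.9 CPM), and CRE females overlap GFP females.

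In females Uqcrq was at 30.6, 33.1 and 40.6 CPM with GFP and 40.1, 46.4 and 48.1 CPM with CRE, where CRE female 1 lay below GFP female 3 (log2 0.37, SE 0.11, edgeR adjusted p = 0.631). The female minus male difference was log2 -0.22 (SE 0.16, edgeR adjusted p = 0.472). Averaged over the sexes the change was log2 0.48 (SE 0.08, edgeR adjusted p = 0.0199). In edgeR that call was lost with the cortical score (adjusted p = 0.685) and without CRE female 3 (0.0606), GFP female 1 (0.0527), GFP female 2 (0.0614), GFP male 2 (0.0742) or GFP male 3 (0.0690). In wild-type mice Uqcrq stood at 51.2 to 103 CPM, with log2 0.18 (SE 0.19) for stress over the sexes (edgeR adjusted p = 1.00), and no promoter window was matched for it.

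The other nuclear genes in CRE males had smaller estimates. At an unadjusted p below 0.05 were 26 subunit genes, 19 nuclear above zero, 4 nuclear below and 3 mitochondrial below, in a contrast where 24.8% of all genes reached that level. Ndufa12, a complex I subunit, was at 29.6, 31.4 and 31.0 CPM in GFP males and 34.8, 35.6 and 35.2 CPM in CRE males (log2 0.20, SE 0.05, edgeR adjusted p = 0.0542). Atp5d, the delta subunit of the ATP synthase head, was at 83.9, 74.7 and 74.1 CPM against 94.1, 88.7 and 92.5 CPM (log2 0.24, SE 0.07, edgeR adjusted p = 0.0571). The groups of both genes were apart, and both missed the threshold. Atp5d overlaps a gene on the opposite strand. DESeq2 called 7 of the 94 subunit genes in this contrast: Atp5d, Cox8a, Ndufa12, Ndufb6, Ndufc2 and Uqcrq higher and mt-Cytb lower. It called 1794 of all 17597 genes tested there.

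Below zero in CRE males were Ndufb3 (log2 -0.14, SE 0.05), Atp5l (log2 -0.12, SE 0.05) and Ndufs4, a subunit needed for complex I stability (log2 -0.16, SE 0.07), none of which passed (edgeR adjusted p = 0.143, 0.182 and 0.190). Ndufs4 was at 53.5, 54.9 and 53.4 CPM in GFP males and 49.7, 42.5 and 52.5 CPM in CRE males, with CRE male 2, the library with the choroid plexus signal, the lowest. Once the model held the choroid plexus score, its estimate was 0.00090. Without overlap between the groups were 23 nuclear genes above and 3 below, and 2 mitochondrial genes below (mt-Cytb and mt-Co3), while 14.7% of all genes were wholly above and 14.7% wholly below. By complex the nuclear medians were 0.04 for I (28 of 37 positive), 0.0021 for II (2 of 4), 0.06 for III (5 of 8), 0.12 for IV (13 of 16) and 0.02 for V (10 of 17). Over all 82 nuclear genes the median was 0.04 with 58 positive, beside 0.0046 and 50.9% for all genes. With the cortical score in the model this nuclear median was 0.01 with 43 positive, and with the choroid plexus score 0.06 with 63 positive. Subunit genes at an unadjusted p below 0.05 (edgeR) then numbered 5 and 14, beside 441 and 2627 of all genes. The part of neighbouring tissue was not tested.

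All 12 mitochondrial genes had estimates below zero in CRE males, with a median log2 of -0.15 and none called. The estimates were -0.22 for mt-Nd5 (SE 0.08), -0.21 for mt-Cytb (SE 0.08), -0.21 for mt-Co3 (SE 0.09), -0.20 for mt-Nd4 (SE 0.10), -0.16 for mt-Atp6 (SE 0.09), -0.15 for mt-Nd6 (SE 0.09), -0.15 for mt-Co2 (SE 0.08), -0.15 for mt-Nd2 (SE 0.09), -0.13 for mt-Nd1 (SE 0.08), -0.12 for mt-Co1 (SE 0.08), -0.10 for mt-Nd3 (SE 0.14) and -0.05 for mt-Atp8 (SE 0.11). mt-Nd5, mt-Cytb and mt-Co3 were the 3 with an unadjusted p below 0.05 (edgeR adjusted p = 0.143, 0.145 and 0.167). mt-Cytb was at 8818, 10432 and 8932 CPM in GFP males and 7997, 7777 and 8622 CPM in CRE males. GFP male 2 was the highest library of the 6, and without it the median was -0.06. The median stayed negative in all 22 alternatives, down to -0.22, and was -0.10 with the cortical and -0.08 with the choroid plexus score as covariates.

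In CRE females 0 of 94 subunit genes were called by edgeR (0% of all genes), DESeq2 or limma-voom, and 3 had an unadjusted p below 0.05 (5.96% of all genes). The nuclear median was 0.0060 with 44 of 82 positive, and its sign changed in 7 of 23 alternatives. The mitochondrial median was 0.04 with 11 of 12 positive, and its sign changed in 2 of 22. The estimates per mitochondrial gene lay between -0.03 (mt-Atp8, SE 0.11) and 0.07 (mt-Co2, SE 0.08). mt-Co3 was at 0.07 (SE 0.09), mt-Cytb at 0.06 (SE 0.08), mt-Nd4 at 0.06 (SE 0.10), mt-Nd6 at 0.05 (SE 0.09), mt-Co1 at 0.04 (SE 0.08), mt-Atp6 at 0.03 (SE 0.09), mt-Nd1 at 0.03 (SE 0.08), mt-Nd3 at 0.02 (SE 0.14), mt-Nd2 at 0.02 (SE 0.09) and mt-Nd5 at 0.01 (SE 0.08). All of these were smaller than their SE.

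Of the nuclear genes in females, Ndufb10, a complex I subunit, was at 58.6, 60.1 and 65.0 CPM with GFP and 72.7, 67.4 and 77.2 CPM with CRE, without overlap (log2 0.24, SE 0.07, edgeR adjusted p = 0.630). Cox7c, a small complex IV subunit, was at 82.4, 82.8 and 86.7 CPM against 77.4, 76.0 and 74.5 CPM (log2 -0.14, SE 0.06, edgeR adjusted p = 0.783). Ndufa6 (log2 0.12, SE 0.06) lay above and Ndufa3 (log2 -0.12, SE 0.06) and Ndufa5 (log2 -0.09, SE 0.05) below zero, and none passed (edgeR adjusted p = 0.852, 0.839 and 0.869). Without overlap were 2 nuclear genes above (6.5% of all genes) and 7 below (5.04% of all genes).

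Averaged over the sexes, Uqcrq was again the 1 subunit gene of 94 called by edgeR (1.42% of all genes, 1.3% higher), with 21 at an unadjusted p below 0.05 (14.2% of all genes). Ndufb10 (log2 0.20, SE 0.05, adjusted p = 0.0766) and Atp5d (log2 0.17, SE 0.05, adjusted p = 0.104) came next above zero, and DESeq2 called both. In all, DESeq2 called 3 subunit genes and 650 of the 17597 genes tested in that contrast. Ndufa5 (log2 -0.10, SE 0.04), Atp5l (log2 -0.09, SE 0.04) and Cox7c (log2 -0.09, SE 0.04) came first below zero and did not pass (edgeR adjusted p = 0.237, 0.264 and 0.334). The medians were 0.02 for nuclear and -0.06 for mitochondrial genes, which had 0 of 12 positive. Without GFP male 2 the mitochondrial median was -0.0067, and without CRE female 3 the nuclear median was 0.0060. With the cortical score in the model they were -0.0085 for nuclear and -0.02 for mitochondrial genes (2 of 12 positive), and with the choroid plexus score the mitochondrial median was -0.012. Cortical markers had a median of 2.22 in this contrast with 4 of 15 called higher, and their part in the result was not tested. The mitochondrial estimates were -0.10 for mt-Nd5, -0.07 for mt-Cytb, mt-Nd4 and mt-Co3, -0.06 for mt-Nd2 and mt-Atp6, -0.05 for mt-Nd1 and mt-Nd6 and -0.04 for mt-Co1, mt-Co2, mt-Atp8 and mt-Nd3, each with an SE of 0.06 to 0.10.

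The female minus male difference in the effect of Cre called 0 of 94 subunit genes with edgeR (0.0114% of all genes), DESeq2 and limma-voom, and 4 had an unadjusted p below 0.05 (17.5% of all genes). All 12 mitochondrial estimates were above zero, with a median log2 of 0.20, while 58 of 82 nuclear estimates were below zero, with a median of -0.06. The mitochondrial estimates were 0.02 for mt-Atp8, 0.12 for mt-Nd3, 0.16 for mt-Nd1 and mt-Co1, 0.17 for mt-Nd2, 0.19 for mt-Atp6, 0.20 for mt-Nd6, 0.23 for mt-Co2 and mt-Nd5, 0.25 for mt-Nd4, 0.27 for mt-Cytb and 0.28 for mt-Co3. Without GFP male 2 the mitochondrial median was 0.10. The nuclear genes of smallest p were Cox7b (log2 -0.20, SE 0.08), Ndufb6 (log2 -0.23, SE 0.10) and Atp5f1 (log2 -0.15, SE 0.07) below zero and Ndufb3 (log2 0.17, SE 0.08), Ndufs4 (log2 0.17, SE 0.10) and Cox7a2l (log2 0.14, SE 0.09) above, none passing (edgeR adjusted p = 0.233 to 0.417). Both contrasts in this difference rest on the same fit, and the CRE males within it carried the cortical signal given above.

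Between floxed females and males, 0 of 94 were called by edgeR (0.0682% of all genes, 0.0341% higher and 0.0341% lower), DESeq2 or limma-voom, and 4 had an unadjusted p below 0.05 (6.68% of all genes). The nuclear median was 0.0059 with 49 of 82 positive, and the mitochondrial 0.12 with 12 of 12 positive. The mitochondrial estimates were 0.07 for mt-Nd6, 0.08 for mt-Nd1, 0.11 for mt-Co1, 0.12 for mt-Nd2, mt-Nd5, mt-Co2, mt-Co3 and mt-Atp6, 0.14 for mt-Cytb, 0.16 for mt-Nd3, 0.18 for mt-Atp8 and 0.19 for mt-Nd4. Markers of other cells lay to 1 side as well, with none called by edgeR: endothelial markers were higher in females in 12 of 12 (median 0.27, 10 at an unadjusted p below 0.05) and shared medium spiny neuron markers in 15 of 15 (median 0.13), while cortical markers were lower in 13 of 15 (median -1.12) and choroid plexus markers in 14 of 14 (median -1.15). With the cortical and choroid plexus scores in the model the mitochondrial median was 0.08 in each case, and the part of tissue makeup was not tested. Uqcrq (log2 0.18, SE 0.08), Cox4i2 (log2 0.35, SE 0.17) and Atp5j (log2 0.06, SE 0.03) had the smallest p above zero, and Ndufa11 (log2 -0.06, SE 0.04), Ndufa3 (log2 -0.05, SE 0.04) and Atp5k (log2 -0.06, SE 0.05) below. None passed (edgeR adjusted p = 0.722 to 0.925). The shift of the nuclear genes toward males seen in wild-type libraries, a median of -0.18, thus stood beside a median of 0.0059 here, and no test was made between the experiments.

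Within the nuclear genes, a chosen list of 17 subunits was followed as a group. Not all of them are catalytic: Cox4i1, Cox5a and Cox5b of complex IV are among them. Their estimates were positive in 17 of 17 for stress in females (median 0.13) and in 16 of 17 in males (median 0.07), and negative in 16 of 17 for wild-type females against males (median -0.13). The 17 are part of the 80 nuclear genes tested there, of which 65, 63 and 77 lay on the same sides. Positive for stress were 48.7% of all genes in females and 49.7% in males. In CRE males 14 of 17 were positive (median 0.04), from -0.06 for Ndufs1 to 0.24 for Ndufs7 and Cox5a. None was called by edgeR in any of the 10 contrasts, and the smallest adjusted p was 0.0984, in CRE males. Of the 7 muscle, lung or testis isoforms, 5 could be tested in floxed mice and 3 in wild-type mice, and none was called.

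Other genes of the same organelle were counted as lists. Of 44 tested assembly factors of the complexes, Cox17, a copper chaperone for complex IV, rose in CRE males (log2 0.27, SE 0.06, edgeR adjusted p = 0.0377) and no other was called in any contrast. The list's median was -0.02 there and 0.12 for stress over the sexes (36 of 44 positive). Of 24 genes for the upkeep and transcription of mitochondrial DNA, Mterf2, a member of the mitochondrial termination factor family, fell in CRE males by 0.31 on the log2 scale (SE 0.08, edgeR adjusted p = 0.0438), with 20 of 24 estimates below zero and a median of -0.09. Of 17 regulators of mitochondrial biogenesis, Esrra, a nuclear receptor that activates respiratory genes, rose in CRE males (log2 0.31, SE 0.07, edgeR adjusted p = 0.0367). The 17 genes of the citric acid cycle and the 19 electron carriers, ubiquinone enzymes and ADP/ATP carriers had no call in any of the 10 contrasts, with medians of 0.02 for both in CRE males.

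Of 76 mitochondrial ribosomal proteins, which translate the mitochondrial mRNAs, 4 rose in CRE males and 4 averaged over the sexes, and none fell. The first in males were Mrps12 (log2 0.83, SE 0.15, edgeR adjusted p = 0.0141), Mrpl57 (log2 0.41, SE 0.09, edgeR adjusted p = 0.0280) and Mrpl12 (log2 0.25, SE 0.06, edgeR adjusted p = 0.0399), while the list's median was -0.0029 with 37 of 76 positive. Of 18 glycolysis genes, 2 rose in CRE males, the hexokinase Hk1 (log2 0.39, SE 0.08, edgeR adjusted p = 0.0222) and the phosphofructokinase Pfkp (log2 0.26, SE 0.06, edgeR adjusted p = 0.0367). Of 79 ribosomal proteins of the cytosol none was called in CRE males, where 64 estimates were negative with a median of -0.11, and Rps13 rose averaged over the sexes (log2 0.38, SE 0.08, edgeR adjusted p = 0.0461). The calls in CRE males stand beside 4.96% of all genes called and those over the sexes beside 1.42%, both with cortical markers higher. In edgeR, 0 of the 9 list genes called in CRE males were called with the cortical score in the model (adjusted p = 1.00 each, and log2 -0.048 for Pfkp), 0 with the choroid plexus score, and 0 without GFP male 2 or GFP male 3. Of the 5 called over the sexes, 0 were called with the cortical score and 1, Mrpl57, with the choroid plexus score (adjusted p = 0.0183), and 0 without GFP male 2, GFP male 3, GFP female 1, GFP female 2 or CRE female 3. The part of neighbouring tissue was not tested.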

How the data were processed

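mRNA of pooled nucleus accumbens tissue was sequenced in 24 libraries, 3 per group. The deposited values are whole-number read counts per Ensembl gene. The submitters' processing notes name Bowtie2 2.1.0, TopHat2 2.0.9 and HTSeq 0.6.0, with the builds NCBIM37 and mm9; counting settings and strand were not stated. Symbols and exon lengths came from GENCODE M21 by Ensembl ID. IDs without a symbol (0.736% to 0.911% of the counts) stayed in the fits, 6757 of 37991 genes had no count, and 0 columns of sample values were left unused.

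Each experiment was fitted by itself in edgeR 4.0.16 (R 4.3.3) with TMM factors, filterByExpr, 4 group means and the robust quasi-likelihood test. P-values were Benjamini-Hochberg adjusted over all genes tested and called below 0.05, in 10 contrasts, with SE taken as the fold change divided by the root of F. Levels are CPM. Alternatives were RLE factors, library size alone, DESeq2 1.42.0, limma-voom (limma 3.58.1), no filter, the mitochondrial genes left out, a replicate block, single-sex fits, cortical and choroid plexus scores, each library left out, and, added after seeing the data, a ribosomal protein score. Replicate numbers were checked for pairing by correlating deviations from group means. Every pair passed 0.1 only for control against stressed wild-type females, and the block changed no subunit call there.

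Genes named were all called subunit genes, the 3 nuclear genes of smallest p in each direction and all tested mitochondrial genes of each contrast, with up to 3 called genes per list. Shares were also taken of TMM-scaled library sizes and without mt-Co1. Members and lists were chosen with earlier results of these data known, and nuclear copies, motifs and promoter windows were chosen after the counts had been seen. Data were simulated from all 12 libraries of each experiment, with changes of log2 1 put into randomly drawn genes of stressed or CRE females only. No replicate pattern was simulated. In the wild-type simulation (15071 genes), 53.5% of 198 changed genes were recovered with 6 false calls. In the floxed simulation (17450 genes) it was 70.7% with 4.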

Additional observations from a re-analysis of the deposited data

How the results depend on the processing

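No result of the wild-type contrasts had a subunit call under any alternative that was run. In CRE males the number of called subunit genes, 1, was 4 with library size alone, 7 with DESeq2, 0 under the cortical or the choroid plexus covariate, and 0 to 4 without single libraries (4 without GFP female 3, 2 without CRE female 1, 0 without GFP male 2 or 3). Over the sexes it was 3 with DESeq2, 0 with the cortical score and 2 with the ribosomal protein score, and 0 to 5 without single libraries (5 without GFP female 3, 0 without CRE female 3, GFP female 1, 2 or GFP male 2, 3). Atp5d in CRE males was called with library size alone (edgeR adjusted p = 0.0400) and without GFP female 3 (0.0288), and Ndufa12 with library size alone (edgeR adjusted p = 0.0451) and without CRE female 1 (0.0482). Of all genes, the 872 calls in CRE males became 1794 with DESeq2, 551 with the male groups alone, 29 under the choroid plexus covariate and 0 under the cortical covariate, and the 249 over the sexes became 650 with DESeq2, 405 with the ribosomal protein score, 158 under the choroid plexus covariate and 0 under the cortical covariate. Without single libraries these ran from 93 to 1303 in CRE males and from 17 (GFP male 2) to 401 (GFP female 3) over the sexes, the 2 calls of the sex difference under CRE from 0 to 500 (CRE male 3) and the 12 of floxed sex from 9 to 92 (CRE male 3). The sex difference under CRE had 609 calls with DESeq2 and 2 with edgeR, and floxed sex 89 and 12. The replicate block, which changed no subunit call, gave 515 calls in CRE males, 87 over the sexes and 4 for stress over the sexes. It did move the wild-type counts at an unadjusted p below 0.05 in edgeR. Subunit genes at that level went from 14 to 29 for wild-type sex (767 to 1318 of all genes). For stress they went from 2 to 12 over the sexes (489 to 906), from 5 to 12 in males (429 to 662) and from 0 to 2 in females (256 to 457). Same-numbered libraries correlated at 0.33 to 0.59 in wild-type females and 0.086 to 0.34 in males, and not above 0.1 throughout in floxed mice. Uqcrq under the block had edgeR adjusted p = 0.0271 in CRE males and 0.0276 over the sexes.

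The nuclear median of the sex difference under CRE was 0.00795 with the cortical score. Without single libraries the mitochondrial medians ran from -0.39 to -0.090 for stress in females, -0.22 to 0.14 in males and -0.43 to -0.068 for their difference, and from 0.10 to 0.26 for the sex difference under CRE. Without mt-Co1 the mitochondrial share and ratio were 4.65% and 5.71 in control females, 4.00% and 4.48 in stressed females, 4.28% and 4.66 in control males, 4.21% and 4.17 in stressed males, 5.31% and 6.79 in GFP females, 5.45% and 6.96 in CRE females, 5.23% and 6.84 in GFP males and 4.66% and 5.84 in CRE males.

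Of the 180 gene results followed, 54 changed sign somewhere, 33 of them in a setting other than leaving out a library; none of these was called, and the cause was not tested. With DESeq2 these were -0.0058 for Ndufv2 (wild-type sex) and 0.00084 for mt-Co2 (stress in males). With RLE size factors these were -0.0058 for Ndufv2 (wild-type sex) and 0.00084 for mt-Co2 (stress in males). Under the choroid plexus score these were -0.036 for mt-Atp8 (the sex difference under CRE), 0.00090 for Ndufs4 and 0.0056 for mt-Atp8 (CRE in males), 0.0052 for mt-Atp6 and 0.011 for mt-Co2 (CRE over the sexes), -0.38 for mt-Atp6 and 0.032 for mt-Co3 (the sex difference under stress), 0.11 for mt-Co3 (stress in females) and 1.07 for mt-Atp8, 0.042 for mt-Co2, 0.044 for mt-Cytb, 0.039 for mt-Nd1, 0.067 for mt-Nd2, 0.12 for mt-Nd5 and 0.15 for mt-Nd6 (stress in males). Under the cortical score these were -0.34 for mt-Atp8 and -0.21 for mt-Nd3 (the sex difference under CRE), 0.30 for mt-Atp8 and 0.24 for mt-Nd3 (CRE in males), 0.0086 for Cox7c, 0.14 for mt-Atp8 and 0.13 for mt-Nd3 (CRE over the sexes), -0.027 for Ndufv2, -0.045 for mt-Atp8 and -0.052 for mt-Nd2 (wild-type sex), 0.072 for mt-Nd5 and 0.074 for mt-Nd6 (the sex difference under stress) and 0.0016 for mt-Co2 (stress in males). With library size alone these were -0.011 for mt-Atp8 (the sex difference under CRE), -0.0019 for mt-Nd5 (CRE in females), -0.0060 for Ndufv2 (wild-type sex), 0.029 for mt-Co3 (stress in females) and 0.013 for mt-Co2 (stress in males). With limma-voom these were -0.0096 for Ndufv2 and -0.027 for mt-Atp8 (wild-type sex) and 0.031 for mt-Co3 (stress in females). Without the mitochondrial genes this was -0.0079 for Ndufv2 (wild-type sex). Without the filter these were -0.015 for Ndufv2 (wild-type sex) and 0.012 for mt-Co2 (stress in males). In a fit of the male groups alone this was 0.0032 for mt-Co2 (stress in males). Under the replicate block these were -0.0082 for Ndufv2 and -0.012 for mt-Atp8 (wild-type sex), 0.0017 for mt-Co3 (stress in females) and 0.038 for mt-Atp8 (stress in males). Under the ribosomal protein score (chosen after seeing the data) these were -0.0040 for mt-Atp6 (CRE in females), -0.12 for Ndufv2, -0.42 for Uqcrb, -0.21 for mt-Atp6, -1.40 for mt-Atp8, -0.15 for mt-Nd2, -0.048 for mt-Nd5 and -0.0016 for mt-Nd6 (wild-type sex), 1.28 for mt-Atp8, 0.032 for mt-Co2, 0.011 for mt-Nd1, 0.051 for mt-Nd2, 0.067 for mt-Nd5 and 0.0094 for mt-Nd6 (stress in males) and 0.41 for mt-Atp8 and 0.15 for mt-Nd3 (stress over the sexes).

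Ranges without single libraries for the genes whose sign changed follow. For stress in females Cox6a1 -0.35 to 0.12, mt-Atp6 -0.83 to 0.026, mt-Atp8 -1.505 to 0.24, mt-Co3 -0.21 to 0.34 and mt-Nd3 -0.51 to 0.28. For stress in males Atp5l -0.37 to 0.010, mt-Atp6 -0.98 to 0.23, mt-Atp8 -0.83 to 0.15, mt-Co2 -0.070 to 0.10, mt-Cytb -0.29 to 0.15, mt-Nd1 -0.15 to 0.048, mt-Nd2 -0.29 to 0.12, mt-Nd3 -0.15 to 0.33, mt-Nd4 -0.14 to 0.14, mt-Nd5 -0.37 to 0.094 and mt-Nd6 -0.37 to 0.30. For stress over the sexes mt-Atp8 -0.88 to 0.00048 and mt-Nd3 -0.18 to 0.21. For the sex difference under stress mt-Atp6 -0.50 to 0.71, mt-Atp8 -1.26 to 0.47, mt-Co3 -0.49 to 0.056, mt-Nd3 -0.66 to 0.14, mt-Nd5 -0.44 to 0.061 and mt-Nd6 -0.60 to 0.13. For wild-type sex Ndufv2 -0.088 to 0.070, Uqcrb -0.036 to 0.30, mt-Atp6 -0.20 to 0.51, mt-Atp8 -0.34 to 0.41, mt-Co2 -0.079 to 0.033, mt-Cytb -0.011 to 0.20, mt-Nd2 -0.033 to 0.16, mt-Nd3 -0.37 to 0.025 and mt-Nd4 -0.026 to 0.15. For CRE in females mt-Atp6 -0.028 to 0.074, mt-Atp8 -0.093 to 0.042, mt-Co1 -0.0068 to 0.079, mt-Nd1 -0.0071 to 0.073, mt-Nd2 -0.025 to 0.081, mt-Nd3 -0.0063 to 0.054, mt-Nd4 -0.00049 to 0.098, mt-Nd5 -0.024 to 0.065 and mt-Nd6 -0.0064 to 0.11. For CRE in males mt-Atp8 -0.16 to 0.094 and mt-Nd3 -0.27 to 0.095. For CRE over the sexes mt-Atp8 -0.097 to 0.030 and mt-Nd3 -0.12 to 0.058. For the sex difference under CRE mt-Atp8 -0.13 to 0.14 and mt-Nd3 -0.075 to 0.29.

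The low isoforms had few counts, and some of them failed the filter, while the simulation below did not look at them separately. In simulated data, 53.5% of genes changed by log2 1 were recovered in the wild-type experiment and 70.7% in the floxed experiment, so smaller changes can go uncalled.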

Other observations

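In each wild-type group library 1 differed from the other libraries across many genes, a pattern noticed after seeing the data and given as values only. Set against the other libraries of its group, 34 of 80 nuclear genes were higher in library 1 in all 4 groups and 6 were lower, with a median log2 difference of 0.16. Of all 15249 genes tested, 25.2% were higher in library 1 in all 4 groups and 24.4% lower, with a median of -0.0067, so the pattern is not limited to the subunit genes. Of 12 mitochondrial genes 0 were higher in all 4 groups and 2 were lower, with a median of -0.18. The nuclear genes have a median GC content of 51.3% and the mitochondrial genes 36.5%. The cytosolic ribosomal protein genes summed highest in library 1 of each wild-type group, at 7349, 8639, 8796 and 9304 CPM. What the number 1 stands for is unknown here.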
